A study of Mus musculus with 6 samples.

Results

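The 34 genes described here encode transcription factors that pattern the hypothalamus or that mark its neuron types. They were chosen by symbol, and all 34 were found among the 18204 genes of the digital expression table. The libraries were made by Drop-seq, in which single cells are captured in droplets and transcripts are tagged by cell and by molecule, so that each unique molecular identifier (UMI) counts 1 captured transcript. Dissected hypothalamus came from C57BL/6J mice of 8 weeks, 3 libraries from wild-type (WT) and 3 from IDOL knockout (KO) mice, and no other allele or treatment is named in the labels. IDOL is the ubiquitin ligase encoded by Mylip, which marks lipoprotein receptors for degradation. The labels name neither the deleted part of the gene nor the number of animals in a library, so p-values measure the spread between libraries, which may be technical. The comparisons asked which factors mark which transmitter or peptide type of neuron, and how the factors' levels in the WT libraries compare with those in the KO libraries.

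Most of these factors are homeodomain proteins, zinc-finger proteins or nuclear receptors that act in combination. In the embryo they divide the hypothalamic neuroepithelium into territories such as the suprachiasmatic, paraventricular, arcuate, ventromedial and mammillary regions. Many stay on in the adult, where they hold the identity of a neuron type and help to switch on its peptide, enzyme or transporter genes. Their transcripts are much scarcer than those of the peptides, which matters for a method that samples a small part of each cell's RNA.

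Mylip had 68, 27 and 43 UMIs over all cells of the 3 WT libraries and 2, 0 and 0 over those of KO1 to KO3, so the targeted gene matched the labels. After filtering, 9338 cells remained, 1036 to 1951 per library with 1514439 to 3644549 UMIs, and 3 barcode sequences occurred in more than 1 library. Of these cells, 3116 were neurons by their markers, 305 to 819 per library, with a median of 1060.5 to 1781 UMIs. The members had no part in finding the classes, since they stood in no marker list and were left out of the variable genes used for clustering. Class names rest on markers and mean cells resembling that type. Counts were summed over the cells of a class in each library and are given as CPM, the count scaled to 1000000 UMIs of that class. Gad1, Gad2, Slc17a6, Pomc and Agrp, which mark the neurons of this tissue, stood at 263, 579, 238, 530 and 331 CPM in neurons and 8.17, 8.17, 5.84, 9.34 and 2.33 CPM in oligodendrocytes. Of the 34 factors, 9 overlap another gene of the table, and since the counting by strand is not given in the sources used here, their reads cannot be told apart from those of Six3os1, 4930447C04Rik (over Six6), Dlx6os1, B230323A14Rik (over Foxb1), Zic4, Fgfr2 (over Hmx2 and Hmx3), Raxos1 and Gm26973 (over Nkx2-1). Fgfr2 had 54 to 121 UMIs per library and only 20 in neurons, whereas 85 of 85 Hmx2 and 149 of 150 Hmx3 UMIs lay in neurons. The members had 21 (Lhx6) to 2351 (Rora) UMIs over all cells.

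Across cell classes the factors fell into those found almost only in neurons and those with a second home in glia or vessels. Of the UMIs of Hmx2, Hmx3, Nr5a2, Dlx6, Otp, Dlx5, Dlx1, Isl1, Lhx1 and Sim1, between 94.9% (Sim1) and 100% (Hmx2) lay in neurons. A UMI of Otp was found in 10.9% of neurons and in 0.235% of oligodendrocytes, and one of Isl1 in 15.4% and 0.0782%, where the median depth was 1432 UMIs in neurons and 1079.5 in oligodendrocytes. The oligodendrocyte share gives the level to which free RNA can reach in a cell type that should lack these genes. Nr5a1 (24 UMIs, 22 of them in neurons) and Lhx6 (21, of which 13 in neurons and 12 of these in KO2) were rare, so any level given for them rests on few UMIs. The classes are clusters of the same cells, so the levels by class are a description without a test.

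Tanycytes, the glia lining the floor of the third ventricle, carried a set of these factors. Rax, the retina and anterior neural fold homeobox gene, stood at 491, 598 and 622 CPM in WT1 to WT3, then 553, 455 and 752 in KO1 to KO3, or 579 ± 106 CPM (mean ± SD, n = 6 libraries). Its level was 1.20 ± 1.67 CPM in neurons and 24.6 ± 12.6 CPM in astrocytes. Every library was far above its neurons, and 506 of the 602 Rax UMIs came from 331 tanycytes. Lhx2, a LIM homeobox gene needed for tanycyte development, was at 235 ± 83.1 CPM in tanycytes and 7.92 ± 3.91 CPM in neurons. Nkx2-4, a relative of the ventral patterning gene Nkx2-1, was at 258 ± 49.9 CPM and 7.82 ± 4.65 CPM. Nkx2-1 itself was at 92.5 ± 35.8 CPM in tanycytes and 27.1 ± 7.93 CPM in neurons, and Six3, a forebrain and eye homeobox gene, at 349 ± 88.8 CPM and 129 ± 31.7 CPM. Six6, its close relative, differed less between the classes, with 106 ± 40.3 CPM in tanycytes and 75.9 ± 10.7 CPM in neurons. Tbx3, a T-box gene, was high in tanycytes (180.4 ± 65.3 CPM) but also in endothelial cells (199 ± 57.2 CPM) and mural cells (186 ± 48.7 CPM), with 54.3 ± 19.8 CPM in neurons.

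Other factors were higher in glia than in neurons. The POU-domain gene Pou3f3 was at 214 ± 56.9 CPM in astrocytes, 202 ± 122 CPM in oligodendrocyte precursors (OPC) and 98 ± 27.2 CPM in oligodendrocytes, against 12.6 ± 5.14 CPM in neurons. Its relative Pou3f2 was at 174 ± 24.3 CPM in astrocytes, 108 ± 21.2 CPM in ependymal cells and 106 ± 28.6 CPM in OPC, with 39.1 ± 6.15 CPM in neurons. Unlike Pou3f3 it was low in oligodendrocytes (6.22 ± 6.81 CPM). Prox1, a homeobox gene, was at 206 ± 36.4 CPM in oligodendrocytes and 39 ± 3.72 CPM in neurons. Its level in the newly formed oligodendrocytes (20.9 ± 33.4 CPM) did not come near that of the mature class. Gsx1, a homeobox gene of early neural progenitors, had 28 of its 74 UMIs in OPC (51.5 ± 21.4 CPM) and 46 in neurons (6.67 ± 2.5 CPM). The Iroquois genes Irx3 and Irx5 were higher in ependymal cells (50.2 ± 20 CPM and 75.9 ± 27.1 CPM) than in neurons (4.28 ± 1.96 CPM and 1.89 ± 1.41 CPM). Foxb1, a forkhead gene of the mammillary region, was at 79 ± 30.7 CPM in astrocytes and 41.8 ± 22.9 CPM in neurons, and Meis2 at 30.1 ± 16.9 CPM and 9.95 ± 12.1 CPM. Rora, the nuclear receptor that drives the clock gene Bmal1, was found in every class, from 38.9 ± 6.47 CPM in oligodendrocytes to 251 ± 57.6 CPM in astrocytes, with 188 ± 56.5 CPM in neurons.

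In cells of the vessel wall and meninges, Zic1 was at 243 ± 133 CPM in mural cells and, over the 5 libraries with at least 5 such cells, 264 ± 142 CPM in fibroblast-like cells, against 67.6 ± 23.9 CPM in neurons. Foxp2 was at 232 ± 103 CPM in fibroblast-like cells and 34.6 ± 4.18 CPM in neurons. Nr4a2, an orphan nuclear receptor that is also an immediate early gene, was at 203 ± 182 CPM in fibroblast-like cells, 47.6 ± 28.5 CPM in endothelial cells and 25.9 ± 14.8 CPM in neurons. The fibroblast level of Nr4a2 varied widely, and the SD was close to the mean. Fibroblast-like cells numbered 4, 28 and 6 in WT1 to WT3, then 35, 19 and 104 in KO1 to KO3, so their factors weigh unequally in sums over all cells.

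**Figure D1:**
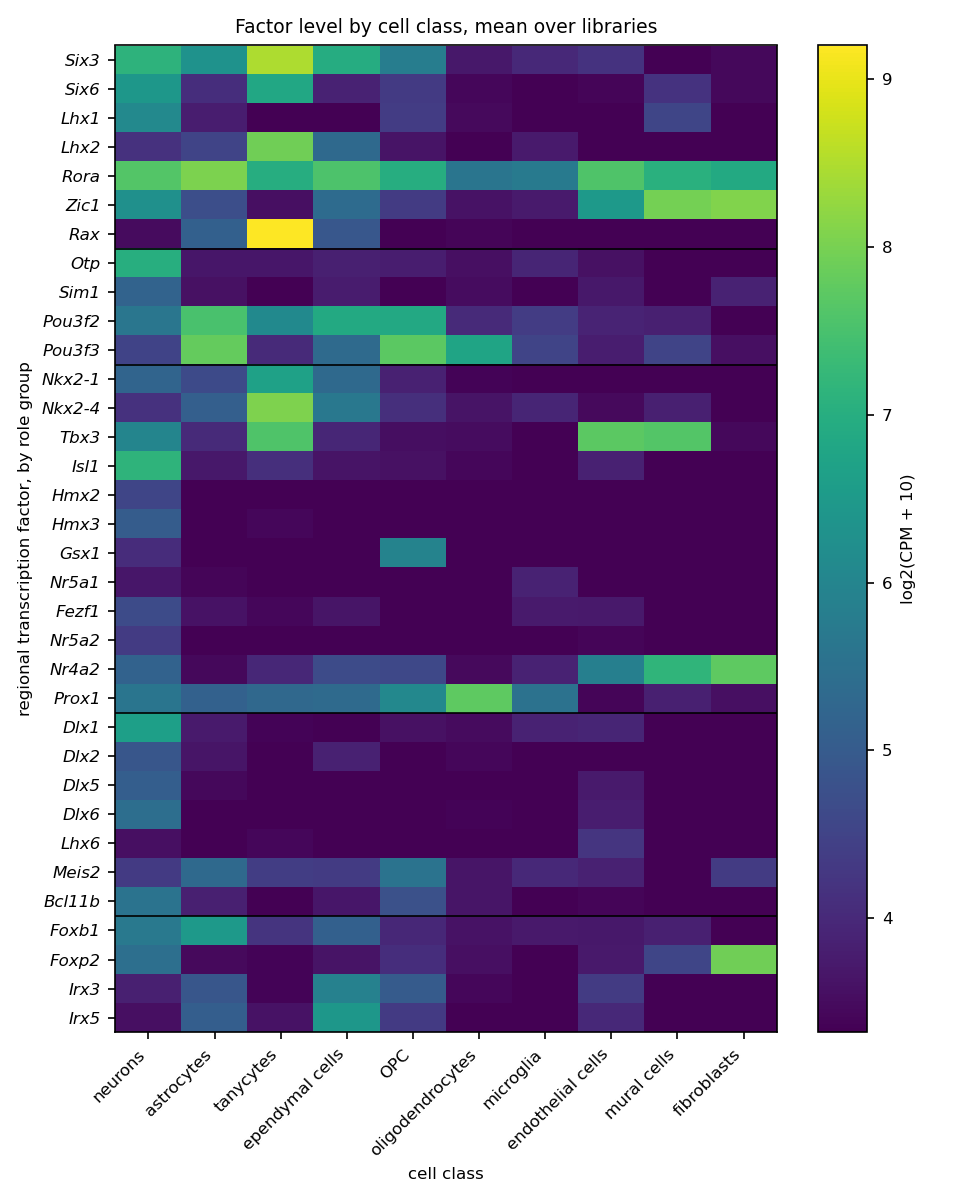
Mean level of each factor (rows, grouped by region) in 10 cell classes (columns), as log2 of CPM plus a pseudocount of 10, averaged over 6 libraries (5 for fibroblasts). Rax, Lhx2, Nkx2-4 and Six3 are brightest in tanycytes, Prox1 in oligodendrocytes, Pou3f3 in astrocytes and OPC, and the Dlx genes, Otp, Isl1 and Lhx1 in neurons.

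The transmitter divided the factors. Neurons were called GABAergic with at least 2 UMIs of Gad1, Gad2 and Slc32a1 together and none of Slc17a6 (1096 cells). They were called glutamatergic with at least 1 UMI of Slc17a6 and none of the other 3 (527 cells). Both sums of a library were compared with the library as a block. Of 30 factors tested, 14 were higher in GABAergic neurons, where 2.54% of all 11903 genes were, and 8 were higher in glutamatergic neurons, where 2.91% were. The median log2 fold change was 0.51 over these factors and 0.02 over all genes. The Dlx genes, homeobox genes that drive GABAergic fate in the forebrain, were almost confined to the GABAergic sums. Dlx1 (chromosome 2, 71528113 to 71533981, plus strand, GRCm38) had 490 UMIs there and 1 in glutamatergic neurons, a ratio per UMI of 255 with a 95% exact counting interval of 45.5 to 10100 and edgeR adjusted p = 3.5e-31. Dlx6 had 172 and 1 UMIs (ratio 89.4 with a 95% exact counting interval of 15.8 to 3550, edgeR adjusted p = 6.9e-16) and Dlx2 108 and 2 (ratio 28.1 with a 95% exact counting interval of 7.59 to 235, edgeR adjusted p = 3.4e-10). Dlx5 had 136 and 0, at least 23.6-fold higher against a floor of 3 UMIs over the group (edgeR adjusted p = 5.8e-14), and Gsx1 40 and 0, at least 6.93-fold higher (edgeR adjusted p = 1.6e-04). Intervals and floors cover counting error only.

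Six6 was at 124, 71.1 and 87.9 CPM in WT1 to WT3, then 114, 117 and 86.3 in KO1 to KO3 in GABAergic neurons and at 0 to 14.2 CPM in glutamatergic neurons (log2 fold change 3.71 ± 0.29, edgeR adjusted p = 3.5e-20). The libraries did not overlap. Six3 was at 107, 179 and 119.5 CPM in WT1 to WT3, then 195, 166 and 196 in KO1 to KO3, against 14.2 to 64.6 CPM (log2 fold change 2.31 ± 0.19, edgeR adjusted p = 2.9e-18). Isl1, a LIM homeobox gene needed for Pomc expression, was at 209, 173 and 249.6 CPM in WT1 to WT3, then 175, 126 and 209 in KO1 to KO3, against 16.7 to 77 CPM (log2 fold change 2.26 ± 0.19, edgeR adjusted p = 2.2e-18). In all 3 the GABAergic level was above the glutamatergic one in 6 of 6 libraries. Smaller differences in the same direction were those of Hmx3 (1.98 ± 0.37), Prox1 (1.89 ± 0.30), Tbx3 (1.74 ± 0.26, 5 of 6 libraries), Rora (1.25 ± 0.15) and Zic1 (1.17 ± 0.22), with edgeR adjusted p from 5.8e-11 (Rora) to 5.2e-05 (Zic1). Hmx2 passed as well (log2 fold change 2.18 ± 0.55, edgeR adjusted p = 0.0047), but its call was lost without KO3 (1.75, edgeR adjusted p = 0.0774) and with DESeq2.

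On the glutamatergic side, Foxb1 was at 138, 57 and 250.1 CPM in WT1 to WT3, then 34.9, 113 and 179 in KO1 to KO3, with 205 UMIs against 3 in GABAergic neurons, a ratio per UMI of 131 with a 95% exact counting interval of 44.3 to 642 and edgeR adjusted p = 1.1e-30. Sim1, a basic helix-loop-helix gene without which the paraventricular nucleus does not form, had 132 UMIs against 3 (ratio 84.6 with a 95% exact counting interval of 28.3 to 416, edgeR adjusted p = 1.0e-22). Fezf1, a zinc-finger gene of the ventromedial nucleus, had 68 against 2 (ratio 65.4 with a 95% exact counting interval of 17.4 to 551, edgeR adjusted p = 4.1e-15), and Irx3 26 against 1 (ratio 50 with a 95% exact counting interval of 8.21 to 2050, edgeR adjusted p = 3.6e-05). All 3 were thus nearly absent from the GABAergic sums. Nr4a2 was at 59.2 ± 36.5 CPM in glutamatergic and 4.62 ± 4.49 CPM in GABAergic neurons (log2 fold change -3.96 ± 0.40, edgeR adjusted p = 2.5e-14). Pou3f2 was at 91.1 ± 35.7 CPM and 9.17 ± 9.92 CPM (log2 fold change -3.75 ± 0.30, edgeR adjusted p = 2.0e-19), and Foxp2 was at 84.9 ± 23.8 CPM and 15.3 ± 5.36 CPM (log2 fold change -2.53 ± 0.25, edgeR adjusted p = 8.3e-15). Nkx2-1 showed the smallest of these differences (log2 fold change -1.21 ± 0.29, edgeR adjusted p = 0.0024), and DESeq2 did not call it. Much of the Sim1 and Pou3f2 signal came from 46 glutamatergic neurons that carried the vasopressin gene Avp, by a threshold given below. These 46 cells held 84 of the 132 Sim1 UMIs. They also held 123 UMIs of Pou3f2, which stood at 406 CPM in them. Otp, orthopedia, which is needed for neuroendocrine neurons of several peptides, was at 114 ± 79 CPM in GABAergic and 126 ± 64 CPM in glutamatergic neurons (log2 fold change -0.12 ± 0.15, edgeR adjusted p = 0.864). Lhx1 was at 59.7 ± 9.83 CPM and 53.1 ± 21.2 CPM (log2 fold change 0.15 ± 0.20, edgeR adjusted p = 0.838). The remaining factors that did not pass were Lhx2, Nkx2-4, Pou3f3, Bcl11b, Meis2 and Nr5a2, and Rax, Lhx6, Nr5a1 and Irx5 had too few UMIs to be tested.

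Neurons were then marked by the peptide or enzyme gene they carried, with at least 3 UMIs and at least 0.2% of the cell's UMIs from that gene, and compared with the other neurons of the same library. Of 25 such genes with a row in the table, 14 marked at least 5 neurons in at least 4 libraries and were tested there. The same threshold was passed by at most 2 of 1278 oligodendrocytes for any of these 14, although free Avp RNA gave 235 CPM there. Among neurons marked by Pomc, the precursor of the melanocortin peptides (48 neurons), 2 of 31 factors tested passed as higher (0.683% of all genes) and 10 as lower (2.97%). For Agrp, the agouti-related peptide (107 neurons), 5 of 32 factors tested passed as higher (2.63% of all genes) and 18 as lower (6.48%). For Npy, neuropeptide Y (140 neurons), 5 of 32 factors tested passed as higher (2.62% of all genes) and 18 as lower (6.6%). Agrp and Npy shared 105 cells and are nearly the same neurons. For Avp, vasopressin (277 neurons), 6 of 32 factors tested passed as higher (3.62% of all genes) and 13 as lower (7.65%). For Sst, somatostatin (133 neurons), 2 of 32 factors tested passed as higher (0.539% of all genes) and 8 as lower (1.36%). For Vip, vasoactive intestinal peptide (50 neurons), 4 of 31 factors tested passed as higher (0.552% of all genes) and 2 as lower (1.96%). For Hdc, the enzyme that makes histamine (28 neurons), 3 of 31 factors tested passed as higher (2.04% of all genes) and 10 as lower (5.43%).

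Among neurons marked by Tac1, the substance P precursor (101 neurons), 4 of 32 factors tested passed as higher (0.428% of all genes) and 9 as lower (1.01%). For Tac2, the neurokinin B precursor (102 neurons), 2 of 32 factors tested passed as higher (0.539% of all genes) and 11 as lower (2.17%). For Gal, galanin (170 neurons), 5 of 32 factors tested passed as higher (0.476% of all genes) and 11 as lower (2.27%). For Cartpt, the CART peptide precursor (173 neurons), 3 of 32 factors tested passed as higher (0.666% of all genes) and 4 as lower (1.02%). For Nts, neurotensin (40 neurons), 0 of 31 factors tested passed as higher (0.0407% of all genes) and 4 as lower (0.293%). For Penk, the enkephalin precursor (40 neurons), 0 of 31 factors tested passed as higher (0.0412% of all genes) and 0 as lower (0.19%). There, 6 factors had an unadjusted p under 0.05. For Cck, cholecystokinin (36 neurons), 0 of 31 factors tested passed as higher (0.0407% of all genes) and 1 as lower (0.505%). In each of these gates the factors passed more often than all genes did, on the lower side for all but Penk and on the higher side for all but Nts, Penk and Cck. Marked neurons were deeper than the others, for example 3399 against 1413 UMIs at the median for Pomc and 2700 against 1389.5 for Gal, while for Vip (1417 against 1432) and Avp (1487 against 1427) the depths were close. The part of depth in these differences was not tested, and all levels are per UMI. Together with the transmitter comparison there were 55 higher and 127 lower calls, and 62 of the lower calls rested on 0 UMIs in the marked neurons. The fitted median log2 fold change ran from -6.02 (Hdc) to -0.49 (Cartpt) for the factors and from -0.94 (Cck) to -0.15 (Avp) for all genes over the 14 gates. Fitted values of factors at 0 UMIs depend on the prior count. With those factors set to their floor bound, their median ran from -1.30 (Npy) to 0 (Vip, Hdc, Nts, Penk and Cck), which is not comparable with the median of all genes, where no bound was set.

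**Figure D2:**
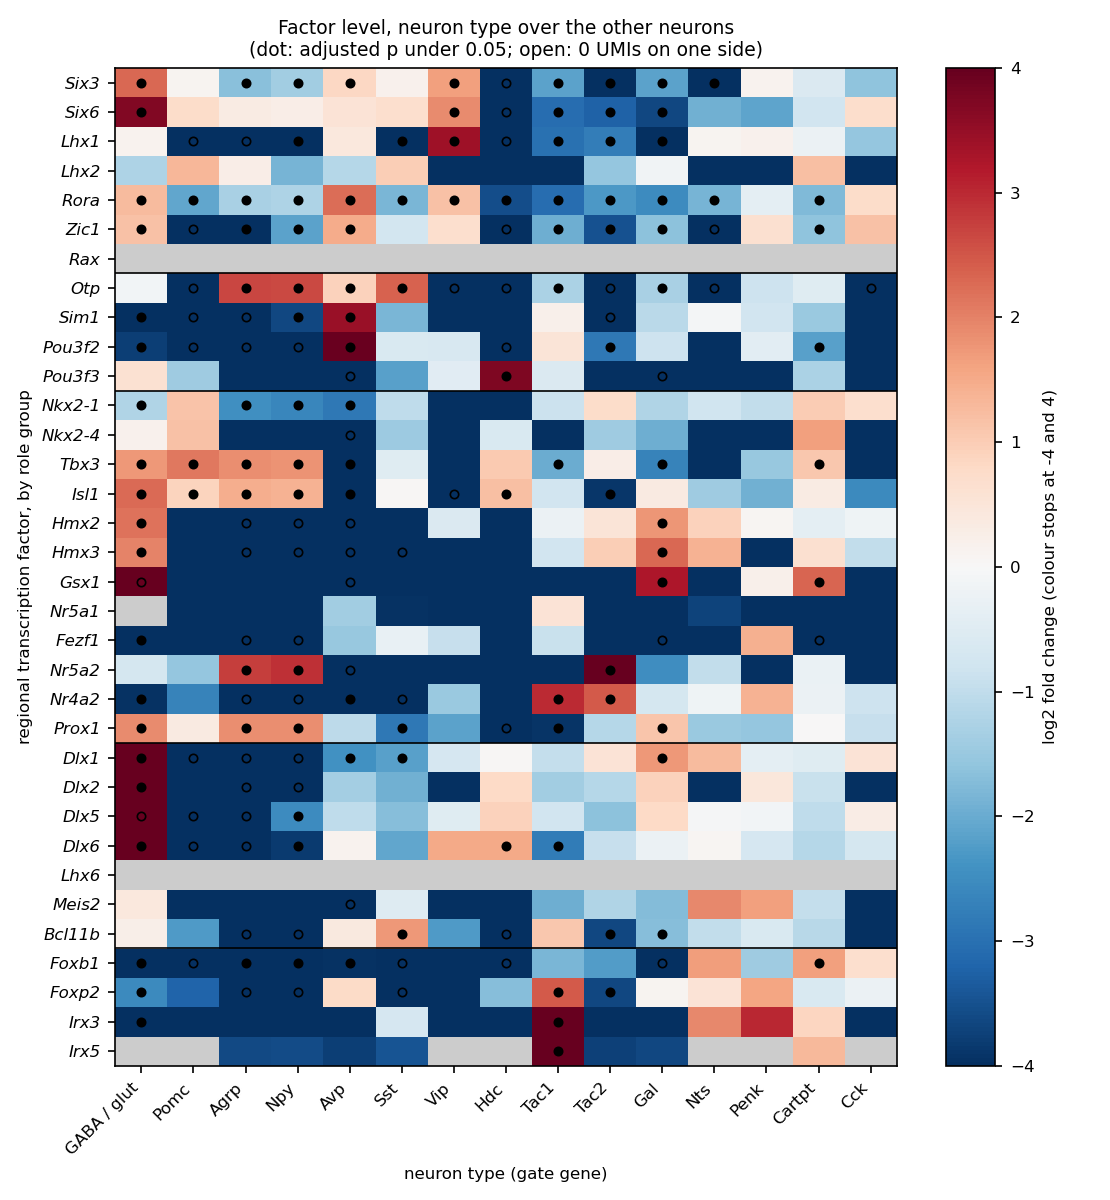
Fitted log2 fold change of each factor (rows, grouped by region) between GABAergic and glutamatergic neurons (first column) and between neurons marked by a peptide or enzyme gene and the other neurons of the same libraries (the other 14 columns). Filled dots mark edgeR adjusted p under 0.05, open dots such calls with 0 UMIs on 1 side (whose colour depends on the prior count), and grey fields were not tested. Red columns of dots are sparse, with 2 factors for Pomc, 5 for Agrp, 6 for Avp and 4 for Vip and for Tac1.

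Of the 4 paraventricular factors, Otp (chromosome 13, 94875602 to 94885130, plus strand, GRCm38) marked the most types. In Agrp neurons it stood at 459.5, 579 and 544 CPM in WT1 to WT3, then 750.2, 637 and 1000 in KO1 to KO3, and in the other neurons at 36.9 to 168 CPM (log2 fold change 2.67 ± 0.17, edgeR adjusted p = 6.0e-52). All 6 libraries were higher in Agrp neurons, and no Agrp value overlapped the others. In Sst neurons it was at 419.7, 504 and 522 CPM in WT1 to WT3, then 429, 542 and 912 in KO1 to KO3, against 32.6 to 184 CPM (log2 fold change 2.37 ± 0.18, edgeR adjusted p = 2.0e-35), again higher in 6 of 6 libraries. Its level in Avp neurons was 193, 106 and 172 CPM in WT1 to WT3, then 194, 193 and 378 in KO1 to KO3, against 43 to 215 CPM (log2 fold change 0.91 ± 0.18, edgeR adjusted p = 8.2e-06), and there the ranges overlapped although each library was higher. Pooled over libraries, Otp was at 346 CPM in 46 glutamatergic Avp neurons and at 11.3 CPM in 79 GABAergic ones. Otp had 0 UMIs in the marked neurons for Pomc (at least 9.10-fold lower), Vip (3.08), Hdc (5.06), Tac2 (11.7), Nts (4.68) and Cck (2.65), all with edgeR adjusted p of 0.00826 or less. The Cck call was lost without KO1 (0.0997) and without KO3 (0.169, edgeR adjusted p). Otp was also lower in Gal neurons (30 UMIs, log2 fold change -1.29 ± 0.27, edgeR adjusted p = 2.4e-04), as well as in Tac1 neurons (18 UMIs, log2 fold change -1.27 ± 0.36, edgeR adjusted p = 0.0302). The Tac1 call was lost with DESeq2, with edgeR's filterByExpr filter on low genes, without the library block, and when any single library other than KO1 was left out. Otp was thus divided between the 2 arcuate types, present in Agrp neurons and not detected in Pomc neurons.

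Pou3f2 and Sim1 marked Avp neurons, but not all of them. Of those with a called transmitter, the 46 glutamatergic cells held 123 Pou3f2 and 84 Sim1 UMIs, and the 79 GABAergic cells 0 of either. This split was made after the levels were seen and carries no test. Pou3f2 (chromosome 4, 22482780 to 22488366, minus strand) is needed for vasopressin, oxytocin and corticotropin-releasing hormone neurons, and it stood at 253, 243 and 319 CPM in WT1 to WT3, then 194, 313 and 213 in KO1 to KO3, against 7.12 to 22.3 CPM in other neurons (log2 fold change 3.96 ± 0.23, edgeR adjusted p = 2.3e-65). Of its 279 UMIs in neurons, 182 came from the 277 Avp neurons. Sim1 was at 189, 152 and 73.6 CPM in WT1 to WT3, then 176, 132 and 106 in KO1 to KO3, against 6.38 to 24.7 CPM (log2 fold change 3.47 ± 0.27, edgeR adjusted p = 9.0e-34). Neither gene's Avp values overlapped those of the other neurons. Pou3f3, the relative of Pou3f2, had 0 UMIs in Avp neurons (at least 3.10-fold lower, edgeR adjusted p = 0.00502), a call that DESeq2 did not make. It instead marked Hdc neurons, at 113, 161 and 62.1 CPM in WT1 to WT3, then 128 in KO1, against 2.40 to 15.7 CPM (log2 fold change 3.72 ± 0.66, edgeR adjusted p = 1.2e-06). The Hdc comparison rests on 28 neurons of 4 libraries, because KO2 and KO3 held 2 and 1 such cells.

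The suprachiasmatic factors marked Vip and Avp neurons, whose peptides are made in that nucleus. Lhx1 (chromosome 11, 84518284 to 84525535, minus strand), a LIM homeobox gene needed for coupling of its clock neurons, stood at 733 and 648 CPM in WT1 and WT2 and 523 and 700.3 in KO1 and KO2 in Vip neurons and at 35.6 to 55.2 CPM in the other neurons (log2 fold change 3.38 ± 0.33, edgeR adjusted p = 5.2e-22). Every Vip value lay far above every value of the other neurons. Six3 was at 244 and 540.5 CPM in WT1 and WT2 and 570.4 and 700.3 in KO1 and KO2, against 74 to 148 CPM (log2 fold change 1.63 ± 0.31, edgeR adjusted p = 4.3e-05). Six6 was at 439.7 and 0 CPM in WT1 and WT2 and 523 and 506 in KO1 and KO2, against 66.8 to 87.4 CPM (log2 fold change 1.91 ± 0.37, edgeR adjusted p = 5.3e-05), higher in 3 of 4 libraries, and DESeq2 did not call it (1.43, DESeq2 adjusted p = 0.0534). Rora was higher in Vip neurons too, at 586 and 432 CPM in WT1 and WT2 and 618 and 739 in KO1 and KO2 against 122 to 253 CPM (log2 fold change 1.16 ± 0.27, edgeR adjusted p = 0.00265). That call was lost with DESeq2, without WT1 (0.99, edgeR adjusted p = 0.0562) and without KO2 (1.00, 0.0915). In Avp neurons Rora (chromosome 9, 68653786 to 69388246, plus strand) was at 274, 1185 and 392 CPM in WT1 to WT3, then 843, 1024 and 556 in KO1 to KO3, against 102 to 167 CPM (log2 fold change 2.25 ± 0.13, edgeR adjusted p = 5.3e-66), with every Avp value above every other one. Zic1 was at 173 ± 63 CPM in Avp neurons and 56.6 ± 22.1 CPM in others (log2 fold change 1.49 ± 0.21, edgeR adjusted p = 4.0e-11). Six3 was at 222 ± 92.5 CPM and 119 ± 28.4 CPM (log2 fold change 0.84 ± 0.17, edgeR adjusted p = 3.7e-05), and both were higher in 6 of 6 libraries. Pooled levels of Rora, Zic1 and Six3 were 1290, 368 and 402 CPM in 79 GABAergic Avp neurons. They were 49.5, 3.3 and 6.59 CPM in 46 glutamatergic Avp neurons.

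The same factors passed as lower in other types, Rora in 10 gates, Zic1 in 9, Lhx1 in 8, Six3 in 7 and Six6 in 4. Six6 was not lower in the arcuate types, at 158 ± 75.7 CPM in Pomc neurons against 74.1 ± 12.8 CPM in others (log2 fold change 0.75 ± 0.33, edgeR adjusted p = 0.235) and 106 ± 38.7 CPM in Agrp neurons against 74.5 ± 10.8 CPM (log2 fold change 0.33 ± 0.30, edgeR adjusted p = 0.546), neither of which passed. In Gal neurons Six6 had 4 UMIs against 546 (log2 fold change -3.65 ± 0.49, edgeR adjusted p = 4.8e-11). In Tac2 neurons Six3 had 1 against 837, a ratio of 36.2 with a 95% exact counting interval of 6.47 to 1430 in favour of the other neurons (edgeR adjusted p = 1.1e-10). Six3, Six6 and Lhx1 all had 0 UMIs in Hdc neurons (at least 5.76-, 4.17- and 2.94-fold lower, edgeR adjusted p = 1.8e-07, 1.0e-04 and 0.00209). Lhx2 passed in no neuron type (59 UMIs in neurons), and Rax, with 8 UMIs in neurons, was not tested in any.

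Among the tuberal factors, Tbx3 and Isl1 marked the arcuate types. Tbx3 (chromosome 5, 119670669 to 119684724, plus strand), which holds the identity of melanocortin neurons, was at 302 and 252 CPM in WT1 and WT2 and 269.7, 181 and 241 in KO1 to KO3 in Pomc neurons and 15 to 63.1 CPM in others (log2 fold change 2.11 ± 0.30, edgeR adjusted p = 3.5e-10). No Pomc value overlapped the others. In Agrp neurons it was at 211, 248 and 218 CPM in WT1 to WT3, then 161, 49 and 276 in KO1 to KO3, against 16.1 to 65.2 CPM (log2 fold change 1.86 ± 0.27, edgeR adjusted p = 4.4e-10), where KO2 was the only library with a low value. Isl1 (chromosome 13, 116298281 to 116309689, minus strand) stood at 392, 303 and 272 CPM in WT1 to WT3, then 429, 245 and 362 in KO1 to KO3 in Agrp neurons, against 85.8 to 171 CPM (log2 fold change 1.44 ± 0.19, edgeR adjusted p = 1.1e-11). It stood at 227, 605 and 372 CPM in WT1 to WT3, then 406 in KO1 in Hdc neurons, against 113 to 163 CPM (log2 fold change 1.21 ± 0.27, edgeR adjusted p = 4.2e-04). In Pomc neurons Isl1 was higher in 5 of 5 libraries (279.5 ± 62.1 CPM against 118 ± 17.6 CPM; log2 fold change 0.89 ± 0.26, edgeR adjusted p = 0.0224). That call was lost with DESeq2, with cells of at least 500 genes, and when a library was left out (0.93 without WT1 (0.0826), 0.81 without WT2 (0.185) and 0.83 without KO2 (0.0534), edgeR adjusted p in parentheses). Both genes were nearly absent from Avp neurons, Isl1 with 3 UMIs against 878 and Tbx3 with 2 against 381, ratios of 35.4 with a 95% exact counting interval of 12.1 to 172 and 23 with a 95% exact counting interval of 6.33 to 191 in favour of the other neurons (edgeR adjusted p = 2.6e-29 and 1.8e-12). Isl1 also had 0 UMIs in Vip neurons (at least 3.53-fold lower, edgeR adjusted p = 3.4e-04).

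Nr5a2 and Prox1 completed the Agrp set. Nr5a2 (chromosome 1, 136842571 to 136960448, minus strand), a nuclear receptor related to the ventromedial gene Nr5a1, was at 60.3, 27.6 and 0 CPM in WT1 to WT3, then 89.3, 147 and 29 in KO1 to KO3 in Agrp neurons, from 22 UMIs, against 0.850 to 22.5 CPM (log2 fold change 2.77 ± 0.48, edgeR adjusted p = 5.2e-07). WT3 had none. It also marked Tac2 neurons, at 63.1, 34.5 and 124 CPM in WT1 to WT3, then 324, 37.2 and 199 in KO1 to KO3 against 1.53 to 12.8 CPM (log2 fold change 3.98 ± 0.42, edgeR adjusted p = 5.2e-18), higher in 6 of 6 libraries. The 107 Agrp neurons held 22 and the 102 Tac2 neurons 36 of the 78 neuronal Nr5a2 UMIs. Prox1 was at 120.5, 110.3 and 218 CPM in WT1 to WT3, then 179, 123 and 116 in KO1 to KO3 in Agrp neurons, against 28.9 to 38.5 CPM (log2 fold change 1.87 ± 0.32, edgeR adjusted p = 2.7e-07), and all 6 libraries lay apart. Npy neurons gave the same 5 higher calls as Agrp neurons, with log2 fold changes of 2.65 ± 0.17 for Otp, 2.93 ± 0.45 for Nr5a2, 1.86 ± 0.30 for Prox1, 1.81 ± 0.26 for Tbx3 and 1.39 ± 0.19 for Isl1.

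Among neurons marked by Gal, factors needed for growth-hormone-releasing hormone (Ghrh) neurons passed as higher. The Gal neurons included 16 of the 17 Ghrh neurons, and the comparison was not made without them. Those 17 neurons held 11 UMIs of Gsx1, but only 2 of Hmx3 and 1 of Hmx2. Hmx3 (chromosome 7, 131542867 to 131544925, plus strand), one of a pair of neighbouring homeobox genes needed for these neurons, was at 57.2, 99.4 and 72.2 CPM in WT1 to WT3, then 34, 114 and 157 in KO1 to KO3, against 8.87 to 25 CPM (log2 fold change 2.28 ± 0.34, edgeR adjusted p = 6.9e-09). Gsx1 (chromosome 5, 147188696 to 147190947, plus strand), needed for the same neurons, was at 41.6, 16.6 and 108 CPM in WT1 to WT3, then 84.9, 20.1 and 15.7 in KO1 to KO3, against 1.58 to 9.17 CPM (log2 fold change 3.23 ± 0.52, edgeR adjusted p = 1.2e-07), and its 21 UMIs in Gal neurons stood against 25 in all others. Both were higher in 6 of 6 libraries. Hmx2 passed (log2 fold change 1.77 ± 0.46, edgeR adjusted p = 0.00873) but not with a stricter gate or without WT2 (0.0586) or KO3 (0.134, edgeR adjusted p). Prox1 passed (log2 fold change 1.10 ± 0.31, edgeR adjusted p = 0.0179) but not with a stricter gate, with DESeq2, or without WT1 (0.0694), WT3 (0.0554) or KO2 (0.374, edgeR adjusted p). In Cartpt neurons Gsx1 passed (log2 fold change 2.34 ± 0.57, edgeR adjusted p = 0.00473, 16 UMIs) but not without WT1 (0.17) or KO1 (0.0635, edgeR adjusted p). Tbx3 passed there (log2 fold change 1.07 ± 0.24, edgeR adjusted p = 0.0018) but not with DESeq2, without the library block, or without WT1 (0.0717) or WT2 (0.176, edgeR adjusted p). Of the Cartpt neurons, 26 were also Pomc neurons.

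Nr4a2 (chromosome 2, 57106830 to 57124003, minus strand) marked tachykinin neurons. In Tac1 neurons it was at 152, 555 and 126 CPM in WT1 to WT3, then 66.1, 65.9 and 72.7 in KO1 to KO3, against 9.27 to 34.7 CPM (log2 fold change 2.98 ± 0.33, edgeR adjusted p = 1.0e-16), higher in 6 of 6 libraries, with WT2 far above the rest. In Tac2 neurons it was at 197, 34.5 and 0 CPM in WT1 to WT3, then 190.5, 0 and 114 in KO1 to KO3, so only 3 of 6 libraries were higher than their other neurons (log2 fold change 2.45 ± 0.38, edgeR adjusted p = 2.3e-08). The call was lost with DESeq2 and without WT1 (1.83, edgeR adjusted p = 0.0624). Nr4a2 had 0 UMIs in Agrp, Npy and Sst neurons and 1 in Avp neurons. The Agrp call was lost without WT1 (0.0517, edgeR adjusted p), and the Sst call without WT1 (0.0759) or WT2 (0.111), with a stricter gate and with DESeq2. Nkx2-1 passed as higher in no gate and as lower in Avp neurons, with 3 UMIs against 182 (ratio 7.33 with a 95% exact counting interval of 2.47 to 35.9 in favour of the others, edgeR adjusted p = 3.2e-04). Its lower calls in Agrp and Npy neurons (2 UMIs in each) were lost with DESeq2 and without WT1 (0.301 and 0.236, edgeR adjusted p) and several other libraries. The Agrp call was also lost with a stricter gate and the Npy call with a looser one. Its level in Pomc neurons was 64.8 ± 36.4 CPM against 24.4 ± 8.85 CPM in others, which did not pass (log2 fold change 1.15 ± 0.53, edgeR adjusted p = 0.26). Fezf1 was higher in no gate, and Nr5a1 passed nowhere. Nkx2-4 had 51 UMIs in neurons and passed only as lower in Avp neurons (0 UMIs). That call was lost with DESeq2, with a looser gate, and without WT1 (0.149) or KO3 (0.0515, edgeR adjusted p).

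Of the GABAergic factors, Dlx1 was higher in Gal neurons, at 166, 381 and 289 CPM in WT1 to WT3, then 323, 255 and 345 in KO1 to KO3 against 62.4 to 98.1 CPM (log2 fold change 1.74 ± 0.19, edgeR adjusted p = 3.6e-17), and the libraries did not overlap. It had 0 UMIs in Pomc, Agrp and Npy neurons (at least 6.47-, 10.8- and 12.3-fold lower, edgeR adjusted p = 1.8e-07, 1.2e-11 and 3.6e-13), although 63 of 107 Agrp neurons met the GABAergic threshold and none the glutamatergic one. Agrp neurons were thus GABAergic by their enzymes and carried no detected Dlx1. They had 0 UMIs of Dlx2, Dlx5 and Dlx6 as well, with edgeR adjusted p of 0.00733, 0.00136 and 2.1e-04. The Dlx2 call was lost with DESeq2, with a stricter gate and without WT1 (0.0659), and that of Dlx5 without WT1 (0.0581, edgeR adjusted p). Dlx6 passed in Hdc neurons (log2 fold change 1.5 ± 0.51, edgeR adjusted p = 0.0432), but not with DESeq2 or without WT1 (0.459), WT2 (0.236) or WT3 (0.0695, edgeR adjusted p). Bcl11b, a zinc-finger gene of striatal and cortical neurons, was higher in Sst neurons, at 244, 34.8 and 0 CPM in WT1 to WT3, then 273, 75.3 and 68.8 in KO1 to KO3 (log2 fold change 1.74 ± 0.33, edgeR adjusted p = 3.3e-05), where WT3 had none. The call was lost with DESeq2 and without WT1 (1.20, edgeR adjusted p = 0.134). Meis2 passed only as lower in Avp neurons, with 0 UMIs against 55, and not with DESeq2, without the library block, or without WT3 (0.0905) or KO1 (0.213, edgeR adjusted p).

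Among the mammillary and other factors, Irx3, Irx5 and Foxp2 marked Tac1 neurons. Irx3 (chromosome 8, 91798525 to 91802067, minus strand), an Iroquois homeobox gene, was at 107, 72.4 and 31.5 CPM in WT1 to WT3, then 79.3, 65.9 and 0 in KO1 to KO3, against 0 to 2.17 CPM (log2 fold change 5.88 ± 0.56, edgeR adjusted p = 2.5e-22), so that 27 of its 33 neuronal UMIs came from 101 neurons. KO3 had none, and the other 5 libraries were all higher. Irx5, its neighbour in the same cluster, had 12 UMIs in Tac1 neurons and 3 in all others, a ratio of 73.7 with a 95% exact counting interval of 19.9 to 407 and edgeR adjusted p = 2.1e-10. Those 12 were 8, 2 and 1 in WT1 to WT3, then 0, 0 and 1 in KO1 to KO3. Foxp2 (chromosome 6, 14901349 to 15441977, plus strand) was at 191, 289.5 and 47.2 CPM in WT1 to WT3, then 198, 198 and 0 in KO1 to KO3, against 20 to 35.8 CPM (log2 fold change 2.44 ± 0.30, edgeR adjusted p = 5.7e-13), and again KO3 had none. It had 0 UMIs in Agrp and Sst neurons (at least 4.43- and 4.15-fold lower, edgeR adjusted p = 8.2e-05 and 5.8e-04). Foxb1 passed as higher in Cartpt neurons (log2 fold change 1.63 ± 0.26, edgeR adjusted p = 1.6e-07) in 4 of 6 libraries, with 157, 16.8 and 268 CPM in WT1 to WT3, then 24.6, 20.4 and 242 in KO1 to KO3. The direction turned with a stricter gate (-1.73, edgeR adjusted p = 0.2), and DESeq2 did not call it. It had 0 UMIs in Gal and Sst neurons (at least 8.07- and 4.69-fold lower, edgeR adjusted p = 2.0e-07 and 2.0e-04).

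**Figure D3:**
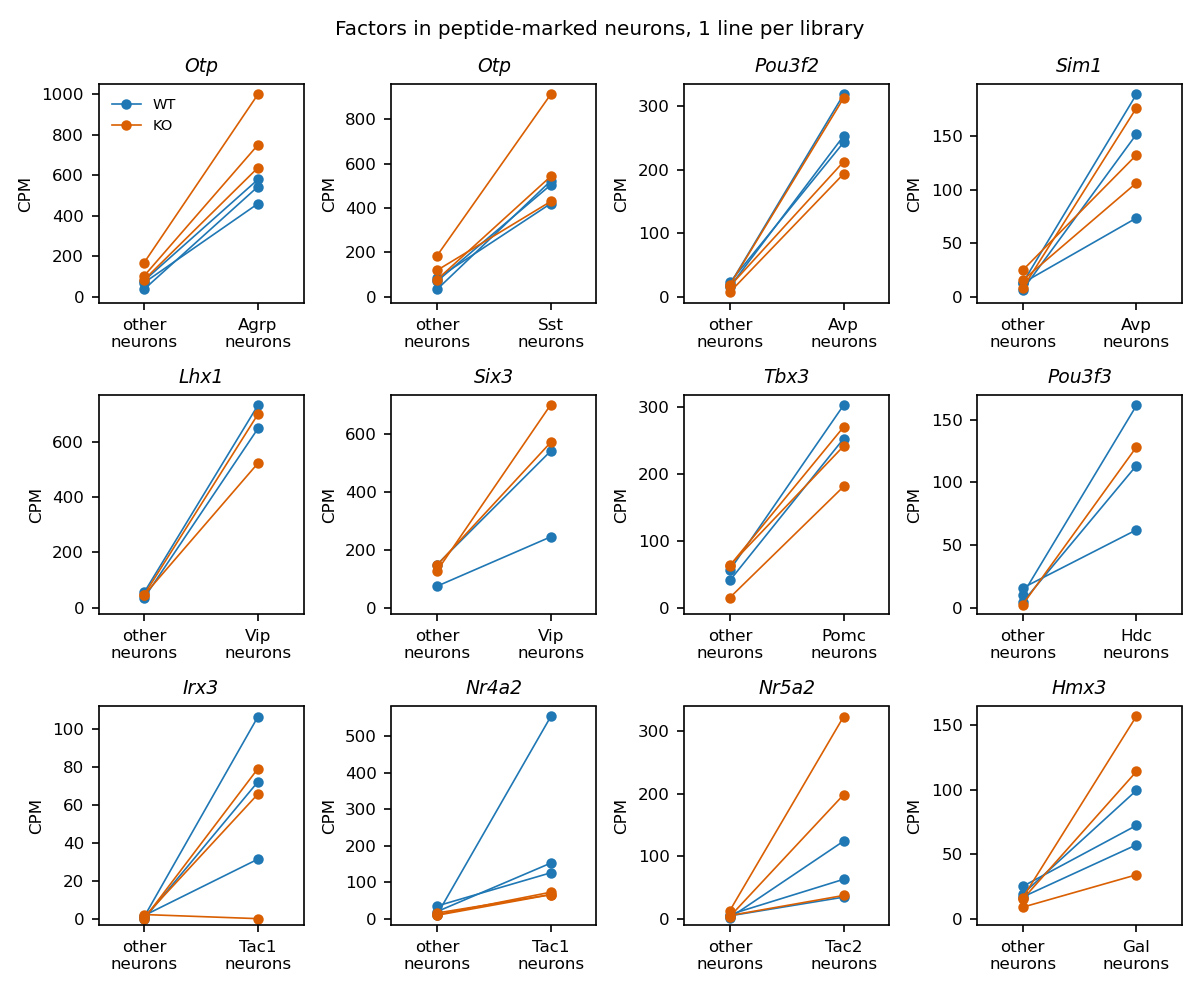
Level in CPM of 11 factors in 12 comparisons, in neurons marked by the gene named on the x axis and in the other neurons of the same library, 1 line per library (blue WT, orange KO). Lines rise in every library for Otp, Pou3f2, Sim1, Lhx1, Six3, Tbx3, Pou3f3, Nr4a2, Nr5a2 and Hmx3, and in 5 of 6 for Irx3. Vip and Hdc show 4 libraries and Pomc 5.

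Some types had too few neurons to be tested and are given as pooled levels. The 32 Oxt neurons, oxytocin cells of which 20 were also Avp neurons, had Otp at 428 CPM, Pou3f2 at 286, Foxp2 at 159 and Sim1 at 98.8. In all neurons together these 4 stood at 118, 40.3, 35.7 and 29.6 CPM. The 17 Ghrh neurons, of which 16 were also Gal neurons, had Isl1 at 337 CPM, Dlx1 at 312 and Gsx1 at 137, with 127, 87 and 6.65 in all neurons. Hmx3 was at 24.98 CPM in the Ghrh neurons, from 2 UMIs, and at 21.55 in all neurons. In the 25 Trh neurons, Zic1 was at 254 CPM, Otp at 187 and Sim1 at 147.

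Pairs of factors were also followed within single neurons. In neurons with a UMI of Otp, Sim1 stood at 99.6 CPM against 12.3 in neurons without one, in the same direction in 6 of 6 libraries, and 67 neurons held both. Dlx1 was nearly excluded from the neurons with Otp (5.81 against 107 CPM, lower in 6 of 6 libraries, with 7 neurons holding both). Neurons with a UMI of Dlx1 had higher levels of Dlx2 (57.5 against 11 CPM), Dlx5 (68.5 against 16.1) and Dlx6 (63.8 against 26.2). Six6 was at 194 CPM in neurons with Six3 and 49.4 without, Lhx1 at 142 in those with Six6 and 44.1 without, and Hmx3 at 124 in those with Hmx2 and 17.2 without. Tbx3 was at 141 in neurons with Nkx2-1 and 47.9 without, whereas Isl1 was at 134 and 127, higher in 4 of 6 libraries. None of 119 neurons with a UMI of Foxb1 had one of Foxp2, though both passed as higher in glutamatergic neurons. Neurons with a UMI of the first gene of a pair were deeper, 3352 against 1287 UMIs at the median for Otp. These values carry no test.

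A wider list of 65 other regional factors, of which 63 had a row, was read from the same fits. In GABAergic against glutamatergic neurons 4 of 37 tested passed as higher, among them Rorb (1.60 ± 0.19), and 10 as lower, among them Nhlh2 (-3.71 ± 0.30) and Ebf3. Avp neurons had 6 of 45 higher, with Ebf3 at 3.85 ± 0.36 and Rorb at 1.67 ± 0.17, and 9 lower. In Tac2 neurons 6 of 45 passed as higher, led by Nhlh2 (3.02 ± 0.30) and the oestrogen receptor gene Esr1 (2.18 ± 0.39), and 4 as lower. Tac1 neurons had 4 of 45 higher, with Pbx3 at 1.96 ± 0.47, and Hdc neurons 3 of 39, with Lef1 at 3.35 ± 0.60. Agrp neurons had 0 of 45 higher and 16 lower. Of all 11903 genes, 302 passed as higher and 346 as lower in the transmitter comparison, and 243 as higher in Hdc neurons. Of 12613 genes, 457 passed as higher and 965 as lower in Avp neurons and 68 and 274 in Tac2 neurons. Those numbers were 54 and 127 in Tac1 neurons and 332 and 817 in Agrp neurons. The list was chosen with earlier results of these data known. The edgeR adjusted p was 8.2e-24 for Ebf3 in Avp neurons, 4.7e-21 for Nhlh2 in Tac2 neurons, 0.00466 for Pbx3 in Tac1 neurons and 1.9e-06 for Lef1 in Hdc neurons.

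The 250 bases before the start of 5 of the marking genes are shown because each was marked by a homeodomain factor above, Pomc by Isl1, Npy and Sst by Otp, Vip by Lhx1 and Tac1 by Irx3. Of these, the Isl1 call in Pomc neurons was lost under several alternatives, as given above. They come from RefSeq on GRCm38.p6 and read 5′ to 3′ towards the start, at chr12:3954695-3954944, plus strand for Pomc, chr6:49822460-49822709, plus strand for Npy, chr16:23890845-23891094, minus strand for Sst, chr10:5638968-5639217, plus strand for Vip and chr6:7554811-7555060, plus strand for Tac1. Capitals mark matches, on either strand, to the homeodomain core TAATTA, the nuclear receptor half-site AGGTCA, the POU octamer ATGCAAAT, the T-box half-site AGGTGTGA and the E-box CACGTG.
Pomc: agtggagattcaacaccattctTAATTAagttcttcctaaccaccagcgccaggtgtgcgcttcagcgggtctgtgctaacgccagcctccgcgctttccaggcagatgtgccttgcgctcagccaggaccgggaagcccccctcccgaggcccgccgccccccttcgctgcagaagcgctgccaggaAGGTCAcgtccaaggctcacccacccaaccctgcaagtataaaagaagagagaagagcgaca
Npy: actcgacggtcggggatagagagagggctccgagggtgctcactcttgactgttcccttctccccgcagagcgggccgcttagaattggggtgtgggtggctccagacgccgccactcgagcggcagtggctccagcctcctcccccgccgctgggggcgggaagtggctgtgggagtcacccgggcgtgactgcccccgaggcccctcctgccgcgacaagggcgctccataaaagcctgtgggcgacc
Sst: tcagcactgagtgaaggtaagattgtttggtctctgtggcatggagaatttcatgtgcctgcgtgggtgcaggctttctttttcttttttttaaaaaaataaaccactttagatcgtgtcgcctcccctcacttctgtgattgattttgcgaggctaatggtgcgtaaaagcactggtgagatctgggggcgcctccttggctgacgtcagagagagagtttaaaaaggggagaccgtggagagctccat
Vip: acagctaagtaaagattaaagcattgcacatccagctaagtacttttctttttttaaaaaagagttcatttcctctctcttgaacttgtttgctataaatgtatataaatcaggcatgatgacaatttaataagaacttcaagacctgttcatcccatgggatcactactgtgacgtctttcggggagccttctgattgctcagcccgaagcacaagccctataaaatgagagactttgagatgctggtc
Tac1: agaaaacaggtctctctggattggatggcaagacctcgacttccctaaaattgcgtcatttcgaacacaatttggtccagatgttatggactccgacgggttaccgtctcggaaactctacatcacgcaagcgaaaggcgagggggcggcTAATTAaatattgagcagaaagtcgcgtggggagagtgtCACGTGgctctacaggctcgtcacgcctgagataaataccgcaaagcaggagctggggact
Pomc held TAATTA at -228 and AGGTCA at -62, and Tac1 held TAATTA at -100 and CACGTG at -61, counted from the start with -1 as the last base shown. The other 3 windows held none of the 5 words. Over 32851 promoter windows of this length, TAATTA was found in 4.84%, AGGTCA in 14%, ATGCAAAT in 1.6%, AGGTGTGA in 1.12% and CACGTG in 6.02%. Among 24 windows of the marking genes, 3 held TAATTA (Ghrh, Pomc and Tac1), 5 AGGTCA, 1 ATGCAAAT, 0 AGGTGTGA and 3 CACGTG. Among 32 windows of 26 factors, 0 held TAATTA, and Dlx1 and Nr5a2 held AGGTCA. A match describes the letters of the window, not a bound site.

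Between genotypes no factor passed edgeR's test in any of 5 classes, and 0.0% of all genes did in all cells, 0.0306% in neurons, 0.0404% in GABAergic neurons, 0.0% in glutamatergic neurons and 0.0477% in astrocytes. The factors tested there numbered 32, 26, 15, 10 and 5, and 1, 3, 4, 2 and 0 of them had an unadjusted p under 0.05. In neurons 14 of 26 were above and 12 below WT in KO, with a median log2 fold change of 0.02 against -9.85e-05 for all genes. DESeq2 called none either in any of the 5 classes. Of 42, 28, 18, 16 and 16 other regional factors tested, 0 passed in each class. A p that misses the threshold does not show that levels were equal, and the standard errors in neurons ranged from 0.19 to 0.49.

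The 5 factors of smallest p in neurons were Nr4a2, Otp, Zic1, Isl1 and Dlx5. Nr4a2 was at 27.6, 43.3 and 43.4 CPM in WT1 to WT3, then 18.5, 10.7 and 11.8 in KO1 to KO3 (log2 fold change -1.36 ± 0.31, edgeR adjusted p = 0.281), and every KO library was below every WT library. It was also lower in KO without overlap among glutamatergic neurons, at 81.8, 85.5 and 96.2 CPM in WT1 to WT3, then 63.4, 16.2 and 11.9 in KO1 to KO3 (log2 fold change -1.40 ± 0.44, edgeR adjusted p = 0.876). Fitted with no filter on low genes, Nr4a2 passed in neurons (-1.34 ± 0.30, edgeR adjusted p = 0.00732), and leaving out 1 library gave values between -1.69 (without KO1) and -1.18 (without KO2), none of which passed. Over all cells, where fibroblast-like and endothelial cells also hold it, Nr4a2 was at 18.4, 42.3 and 24.5 CPM in WT1 to WT3, then 23.6, 14.2 and 37.7 in KO1 to KO3 (log2 fold change -0.12 ± 0.41, edgeR adjusted p = 1), and its direction turned without WT2 or KO2.

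Otp in neurons was at 93.7, 105 and 50.9 CPM in WT1 to WT3, then 131, 102 and 229.6 in KO1 to KO3 (log2 fold change 0.86 ± 0.26, edgeR adjusted p = 0.988), with the highest value in KO3 and the lowest in WT3, and the groups overlapped. In GABAergic neurons it was at 92.7, 91 and 21.1 CPM in WT1 to WT3, then 150.2, 76 and 251 in KO1 to KO3 (log2 fold change 1.07 ± 0.34, edgeR adjusted p = 0.916). With no filter on low genes Otp passed in neurons (0.87 ± 0.19, edgeR adjusted p = 0.00686) and in GABAergic neurons (1.06 ± 0.24, edgeR adjusted p = 0.0134). Without KO2 it passed in GABAergic neurons too (1.42 ± 0.29, edgeR adjusted p = 0.0125). Without KO3 the neuronal value was 0.47. The share of neurons that carried Agrp, a type high in Otp, was 4.88%, 3.57% and 2.62% in WT1 to WT3, then 2.98%, 2.28% and 3.48% in KO1 to KO3 (3.69 ± 1.14% and 2.91 ± 0.604%, mean ± SD, n = 3 libraries each). Levels weigh cells by their UMIs. Agrp neurons held 132739 of 2101941 neuronal UMIs in WT1, 36265 of 692581 in WT2 and 18385 of 668579 in WT3. In KO1 to KO3 they held 55985 of 1298908, 40789 of 1217193 and 68969 of 936419. The part of these amounts, or of Sst and Avp neurons, in the Otp level was not tested.

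Zic1 in neurons was at 50, 62.1 and 43.4 CPM in WT1 to WT3, then 98.5, 96.1 and 55.5 in KO1 to KO3 (log2 fold change 0.73 ± 0.23, edgeR adjusted p = 0.988). Over all cells it was at 34, 55.5 and 38.7 CPM in WT1 to WT3, then 61.6, 61.9 and 74.4 in KO1 to KO3 (log2 fold change 0.65 ± 0.22, edgeR adjusted p = 1), and there it was the only factor whose groups did not overlap in 32 tested, where 7.4% of all genes had no overlap. The number of fibroblast-like cells, which are high in Zic1, is given above for each library, and its part in the result was not tested. Isl1 in neurons was at 129.9, 147 and 174 CPM in WT1 to WT3, then 123, 91.2 and 127 in KO1 to KO3 (log2 fold change -0.38 ± 0.19, edgeR adjusted p = 0.988), lower in every KO library than in any WT library. Dlx5 was at 37.6, 24.6 and 20.9 CPM in WT1 to WT3, then 14.6, 21.4 and 24.6 in KO1 to KO3 (log2 fold change -0.57 ± 0.29, edgeR adjusted p = 0.988) with overlap. Nr4a2 and Isl1 were the 2 of 26 factors without overlap in neurons, where 9.73% of genes had none, and Nr4a2 the 1 of 10 in glutamatergic neurons, where 9.65% had none. No factor of 15 tested in GABAergic neurons (10.2% of genes) and none of 5 tested in astrocytes (8.54%) stood without overlap. Factors with too few UMIs to be tested also held some without overlap. The shares above cover tested genes only, and none was computed for genes this sparse. The levels that follow therefore have no background to be read against. In neurons these were Nr5a1, at 5.71, 4.33 and 2.99 CPM in WT1 to WT3, then 1.54, 1.64 and 1.07 in KO1 to KO3, and Irx5, at 4.28, 2.89 and 1.5 CPM in WT1 to WT3, then 0.770, 0.822 and 1.07 in KO1 to KO3, where KO libraries had 1 or 2 UMIs each. In glutamatergic neurons Tbx3 and Zic1 were higher in KO (13.1 ± 6.06 CPM in WT and 31.1 ± 9.04 in KO for Tbx3 and 19.4 ± 8.15 CPM in WT and 48.6 ± 21.4 in KO for Zic1), and Irx3 and Irx5 lower (19.8 ± 5.91 CPM in WT and 8.27 ± 7.17 in KO for Irx3 and 11.8 ± 4.71 CPM in WT and 2.40 ± 2.13 in KO for Irx5). The Tbx3 levels rested on 7, 1 and 3 UMIs in WT1 to WT3, then 13, 7 and 6 in KO1 to KO3. Those of Zic1 rested on 9, 4 and 2 UMIs, then 13, 18 and 8. For Irx3 the counts were 14, 2 and 3, then 4, 3 and 0, and for Irx5 8, 2 and 1, then 1, 1 and 0. In astrocytes Irx3 was lower (28.4 ± 7.33 CPM in WT and 11.5 ± 4.98 in KO), from 7, 3 and 7 UMIs in WT1 to WT3, then 1, 4 and 4 in KO1 to KO3. Over all cells Lhx6 was higher in KO, from 0, 1 and 1 UMIs in WT1 to WT3, then 3, 13 and 3 in KO1 to KO3. Nr5a1 was lower in KO, from 12, 4 and 2 UMIs, then 2, 2 and 2.

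**Figure D4:**
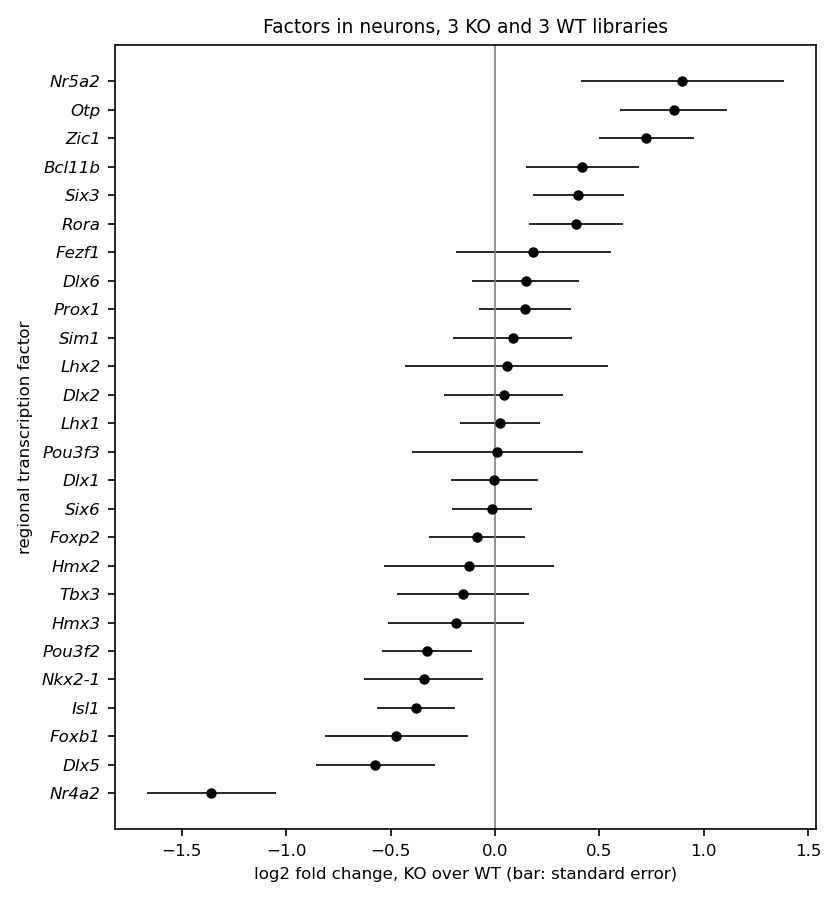
Log2 fold change, KO over WT, of the 26 factors tested in neurons, with its standard error, from edgeR on UMI counts summed per library (3 WT, 3 KO). Nr4a2 at -1.36 and Nr5a2 at 0.90 are the ends of the range, and no factor passed an adjusted p of 0.05.

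Glial and ependymal factors were compared where the cells allowed. In astrocytes Pou3f3 was at 131, 242 and 177 CPM in WT1 to WT3, then 298, 224 and 211 in KO1 to KO3 (log2 fold change 0.49 ± 0.26, edgeR adjusted p = 0.999) and Rora at 175, 290.4 and 187 CPM in WT1 to WT3, then 303, 301 and 251 in KO1 to KO3 (log2 fold change 0.46 ± 0.25, edgeR adjusted p = 0.999), both with overlap. Tanycytes were not tested, because KO3 had 19 of them, under the 20 required. Their Rax level was 570.4 ± 69.5 CPM in WT and 587 ± 151 in KO, their Nkx2-1 level 115 ± 32.8 CPM in WT and 70.1 ± 25.1 in KO and their Six3 level 365 ± 128 CPM in WT and 333 ± 52 in KO (mean ± SD over 3 libraries). For all 3 the groups overlapped.

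Within the 8 types with at least 5 cells in every library, factors with at least 15 UMIs were set side by side, without a test. Otp was higher in each KO library than in any WT library in Agrp neurons, at 459.5, 579 and 544 CPM in WT1 to WT3, then 750.2, 637 and 1000 in KO1 to KO3. It was the 1 of 8 factors without overlap there, where 9.69% of genes had none. In Npy neurons, largely the same cells, Otp and Rora were the 2 of 8 (9.9% of genes), and Rora was at 56.5, 54.1 and 47.8 CPM in WT1 to WT3, then 87.9, 112 and 158 in KO1 to KO3 from 35 UMIs. In Avp neurons Otp was the 1 of 12 (9.07% of genes), at 193, 106 and 172 CPM in WT1 to WT3, then 194, 193 and 378 in KO1 to KO3, where WT1, KO1 and KO2 were nearly equal. Over all libraries Otp was at 346 CPM in glutamatergic and 11.3 CPM in GABAergic Avp neurons. The part of their mix in the level of each library was not tested. In Sst neurons 0 of 8 stood apart (8.21% of genes), and Otp was at 419.7, 504 and 522 CPM in WT1 to WT3, then 429, 542 and 912 in KO1 to KO3. KO3 had the highest Otp level of the 6 libraries in all of these types.

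In Tac1 neurons 3 of 8 factors did not overlap, where 13% of genes did not. Nr4a2 was lower in KO, at 152, 555 and 126 CPM in WT1 to WT3, then 66.1, 65.9 and 72.7 in KO1 to KO3, from 20, 23 and 8 UMIs in WT1 to WT3, then 5, 2 and 1 in KO1 to KO3. Isl1 was lower as well, at 76.3, 96.5 and 236 CPM in WT1 to WT3, then 13.2, 65.9 and 72.7 in KO1 to KO3, and Bcl11b higher, at 30.5, 24.1 and 94.4 CPM in WT1 to WT3, then 159, 165 and 145 in KO1 to KO3. In Tac2 neurons 0 of 5 stood apart (9.72% of genes), and in Gal neurons 1 of 14 (10.3%), which was Rora, lower in KO. In Cartpt neurons it was 3 of 15 (9.77%), which were Dlx1 and Zic1, higher in KO, and Rora, lower. Rora thus stood apart in opposite directions in Npy and in Gal neurons. The shares without overlap were near the background in most of these types, and the counts behind them were small.

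**Figure D5:**
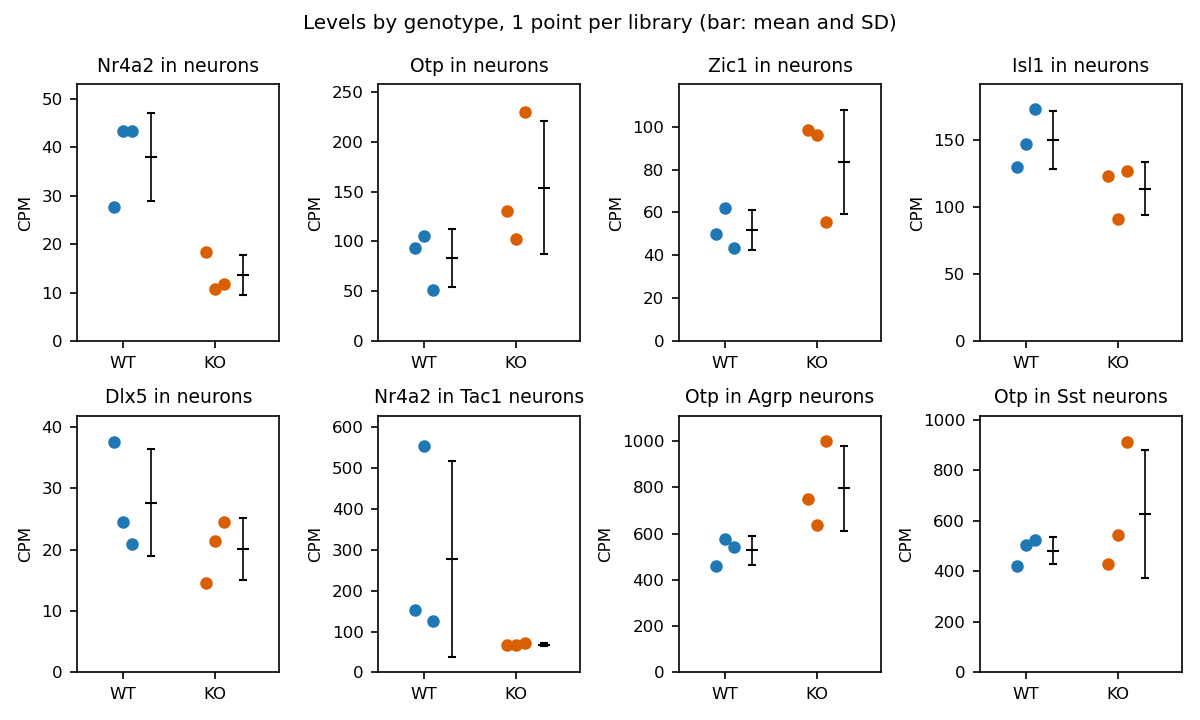
Levels in CPM of 5 factors in neurons (those of smallest p) and of Nr4a2 and Otp in marked types, 1 point per library, with the mean and SD of 3 WT (blue) and 3 KO (orange) libraries beside them. Nr4a2 and Isl1 in neurons, Nr4a2 in Tac1 neurons and Otp in Agrp neurons show no overlap between genotypes, and Otp in neurons spans 50.9 to 229.6 CPM.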

How the data were processed

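The deposited table holds UMI counts per gene and cell barcode, which the authors made from Drop-seq reads with bcl2fastq and STAR 2.5.0c on mm10, per the submitters' processing notes; the counter, annotation and strand setting are not given in the sources used here. No deposited barcode had under 200 genes and no gene was found in under 3 cells. All 13994 barcode columns were assigned to a library by their names. Cells with at least 300 genes and at most 20% mitochondrial UMIs were kept, and Scrublet, run per library, removed 111 of 9449 (1.17%). Cells were clustered with scanpy 1.11.5 (leidenalg 0.10.2, igraph 0.11.9, scikit-learn 1.9.0) into 53 clusters. A cluster was named with at least 3 markers of a class at 4 times their median over clusters, a rule set after the cells were seen.

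Counts were summed per library and class or gate and tested in R 4.3.3 with edgeR 4.0.16 (quasi-likelihood, TMM), with Benjamini-Hochberg adjustment over all genes of a fit and a threshold of 0.05. KO was compared with WT on genes kept by filterByExpr in classes with at least 20 cells in every library. Types were compared with the library as a block, on genes with at least 15 UMIs. DESeq2 1.42.0, other filters, gates, no or another block and each library left out were tried. The fits were tested on simulated data. Members and lists were chosen with earlier results of these data known. Factors named in full are those that passed in a fit, then the 5 of smallest p in KO over WT of neurons, then the others by role, and other regional factors by counts and at most 5 names of smallest p. Single values of some other regional factors are not reported here. The labels give no day for the single libraries, although Drop-seq was run on 2 days that mixed the groups, so no within-day value could be had. The replicate numbers do not pair the libraries. Depth was 1514439 to 3644549 UMIs per library, and intervals cover counting error only.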

Additional observations from a re-analysis of the deposited data

How the results depend on the processing

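Of 2168 alternatives for single factors, 1925 kept the side of the threshold and 236 lost the call. With no gene filter 3 gained a KO over WT call, Nr4a2 in neurons and Otp in neurons and in GABAergic neurons. Without KO2 there was 1 more, Otp in GABAergic neurons. The direction turned in 3, which were Nr4a2 in KO over WT of all cells without WT2 (0.263) and without KO2 (0.16, where it was -0.543 without KO3), and Foxb1 in Cartpt neurons with a stricter gate (-1.73). The cause was not tested. With DESeq2 the number of factors passing, in either direction, was 2 for Cartpt, 2 for Cck, 0 for Nts, 6 for Pomc, 6 for Sst and 4 for Tac1. With edgeR's filterByExpr, which tested fewer genes, it was 13 for Agrp, 9 for Avp, 14 for GABAergic over glutamatergic neurons, 10 for Gal and 13 for Npy. A looser gate gave 13 for Cartpt, 5 for Cck, 7 for Nts and 1 for Penk, and a stricter one 4 for Cartpt. KO over WT with no gene filter gave 1 in GABAergic neurons and 2 in neurons. The share of all genes passing under each alternative is not set beside these counts or those of the next paragraph. They therefore do not tell a change in the factors from a change in all genes.

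Leaving out 1 library gave 0 to 1 in KO over WT of GABAergic neurons, 6 to 10 for Pomc, 8 to 9 for Hdc, 8 to 13 for Tac2, 1 to 3 for Nts, 0 to 1 for Penk, 2 to 8 for Cartpt and 0 to 1 for Cck. With the replicate number as a block, 0 factors passed in each of the 5 KO over WT comparisons. The deviations of same-numbered libraries correlated at -0.0653, -0.00573 and 0.162, and those of WT1 and WT2 correlated best with another number. Types without the library block gave 22 (GABAergic over glutamatergic), 13 (Pomc), 16 (Hdc) and 5 (Cartpt). The stricter gate left no value for Hdc, Tac1, Tac2, Nts, Penk and Cck, tanycytes were not tested, and 26 adjusted p-values that DESeq2 gave as missing were left out. Depth limits factors such as Lhx6, Nr5a1, Irx5 and Rax in neurons.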

Other observations

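Some peptide types held neurons of both transmitters, and the factors differed between them. This split was made after the levels were seen, and the pooled levels carry no test. In 79 GABAergic Avp neurons the levels were Rora at 1290, Six3 at 402, Zic1 at 368, Six6 at 300, Lhx1 at 153, Otp at 11.3 and Sim1 at 0 CPM. In 46 glutamatergic Avp neurons they were Pou3f2 at 406, Otp at 346, Sim1 at 277, Foxp2 at 125, Rora at 49.5, Six3 at 6.59 and Six6 at 0 CPM. The other Avp neurons, of 277 in all, met neither transmitter threshold and are not in these values. Sim1 had 3 UMIs in all GABAergic neurons, and the 46 glutamatergic Avp neurons held 84. The part of the transmitter types as a whole in this difference was not tested.

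Among Tac1 neurons, 20 GABAergic cells had Isl1 at 440 and Dlx1 at 205 CPM, and 51 glutamatergic cells had Foxp2 at 251, Nr4a2 at 212 and Irx3 at 106 CPM. Among Cartpt neurons, 67 GABAergic cells had Isl1 at 196, Tbx3 at 121 and Gsx1 at 42.7 CPM, and 45 glutamatergic cells had Foxb1 at 401 and Lhx1 at 168 CPM. Sst neurons differed less in Otp, which was at 450 CPM in 63 GABAergic and 512 in 10 glutamatergic cells.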
